A study of Danio rerio with 3 samples.

Results

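The genes described here are Notch target genes of the hairy-related and Hey families, together with the Notch feedback gene nrarpa. They were chosen by name: her1, her2, her4.1, her4.5, her8a, her12, hes2, hey1, hey2 and nrarpa. Names in capitals, and names without a paralog letter, were taken to match, so that 12 of the 27882 gene identifiers in the deposited tables were members. HES2 and NRARP each stood for 2 identifiers, and which NRARP identifier is nrarpa and which its paralog nrarpb could not be told from the name, so both are given. HES2 is ENSDARG00000068168 and ENSDARG00000074897, and NRARP is ENSDARG00000018958 and ENSDARG00000091419. The other members are her1 (ENSDARG00000014722), her2 (ENSDARG00000038205), her4.1 (ENSDARG00000056732), her4.5 (ENSDARG00000056729), her8a (ENSDARG00000016363), her12 (ENSDARG00000032963), HEY1 (ENSDARG00000070538) and HEY2 (ENSDARG00000013441).

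RNA came from whole zebrafish larvae of the AB background at 3 days after fertilization, in 1 library for each of 3 groups. The control larvae were labelled wild type. The HRAS larvae carried Tg(fli1ep:GAL4FF)ubs3, in which a fli1 promoter drives the transcriptional activator GAL4FF in endothelial cells, and Tg(UAS:eGFP-HRASV12)io006, which places an eGFP fusion of oncogenic HRAS under that activator. The NICD larvae carried the same driver with tg(UAS:NICD)kca3, which expresses the intracellular domain of Notch. The label of the control names no driver, and in a comparison with it the driver and either transgene cannot be told apart. How many larvae went into a library is not stated. The title of the series names repression of the Notch pathway by the oncogene, and the levels of Notch target genes bear on that question.

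Notch is a receptor that is cut when it binds a ligand on a neighbouring cell. Its intracellular domain then enters the nucleus, joins the DNA-binding protein RBPJ and the coactivator Mastermind, and switches on genes of the her, hes and hey families. Their products are basic helix-loop-helix repressors. In the nervous system the her4 genes and their relatives hold progenitors back from becoming neurons, her1 belongs to the clock that times segmentation, and hey2, known in zebrafish as gridlock, acts in the dorsal aorta. Nrarp is an ankyrin-repeat protein that is itself induced by Notch and damps the signal.

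Corrected reads numbered 26384466 (control), 41105619 (HRAS) and 21944303 (NICD). They are unique reads plus a credited share of the reads that map to more than 1 transcript. With 1 library in a group there was no replicate and no test, and each statement below compares these libraries. Levels per library are given as scaled CPM, corrected reads divided by the scaled library total. Folds are ratios of scaled corrected reads with 0.5 reads added. Square brackets hold an exact binomial 95% interval, conditional on the sum of the compared counts, and it reflects nothing but counting error. It treats credited reads as counted reads. For genes with many shared reads it thus leaves out error in how these were divided and is too narrow. A gene was called higher or lower where the fold reached 2, the compared libraries together had 50 reads or more and the interval left out 1. In RNA of whole larvae, fewer cells of a type and less RNA per cell cannot be told apart.

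In the NICD library her4.5 and her12 were higher than in the control, and HES2 (ENSDARG00000068168) was lower. In the HRAS library only the same HES2 identifier passed the size rule against the control, and it was lower. Between the transgenic libraries, her4.5 and her12 were lower in HRAS than in NICD. NRARP (ENSDARG00000091419), her4.1, HEY1 and HEY2 also stood above the control in NICD with intervals that left out 1, by 1.19-fold to 1.49-fold, and were not called.

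Levels per length, as the authors' RPKM, spanned a wide range. The NRARP identifier ENSDARG00000091419 was the most abundant member in each library, at 16.5 (control), 17.5 (HRAS) and 24.8 (NICD) RPKM. The next were her4.1, at 12.8, 10.4 and 17.5 RPKM in the same order, and HEY1, at 11.7, 8.83 and 14.05 RPKM. In the control the counting intervals of her4.1 and HEY1 overlapped, and in both transgenic libraries they did not. The lower NRARP identifier, her2, her4.5, her12, her8a, HEY2 and HES2 (ENSDARG00000068168) followed in the control at 5.20 down to 2.16 RPKM, and each overlapped its neighbour in that order. In the NICD library her4.5 stood at rank 4 of the 12, against rank 6 in the control and in HRAS. The gene her1 was last in each library.

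**Figure D1:**
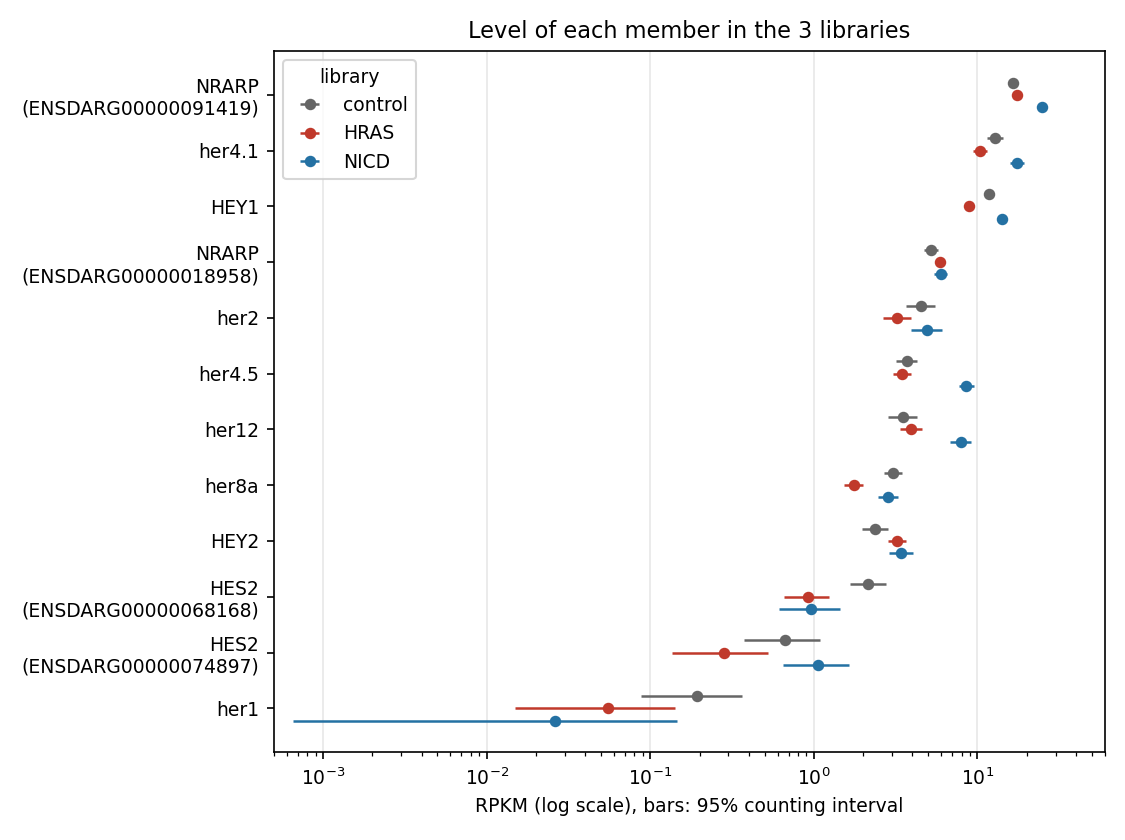
RPKM of the 12 identifiers in the control, HRAS and NICD libraries on a log axis; points are the deposited values, 1 library each, and bars are 95% counting intervals. The NICD points of her4.5 (8.57 RPKM) and her12 (7.90 RPKM) lie to the right of the control points (3.696 and 3.501 RPKM), and her1 lies at the low end in each library.

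The her4 genes are counterparts of mammalian Hes5 and are transcribed in neural progenitors. In the RefSeq annotation of assembly GRCz12tu, her12, her4.2, her4.1, her4.3, her4.4 and her4.5 follow one another with no other protein-coding gene between neighbours. The gene her4.5 had 168 (control), 246 (HRAS) and 324 (NICD) corrected reads. After scaling these were 6.40, 5.98 and 14.7 scaled CPM, so the NICD library alone was high. The gene was 2.29-fold higher in NICD than in the control [1.90 to 2.78] and stood at 0.934 in HRAS against the control [0.765 to 1.14]. Relative to NICD, HRAS stood at 0.408 [0.344 to 0.482], which was called lower.

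Most reads of her4.5 were also credited to other transcripts. Its unique reads numbered 28 (control), 36 (HRAS) and 71 (NICD), beside 748, 1131 and 867 non-unique reads. The gene has 1 transcript in the deposited tables, so a second transcript of its own does not account for the sharing. On unique reads alone it was 2.97-fold higher in NICD than in the control [1.91 to 4.82] and stood at 0.278 in HRAS against NICD [0.179 to 0.417]. Both calls were also made on unique reads, with wider intervals. Of the unique reads of the 5 her4 genes, her4.5 held 14.1% (control), 15.3% (HRAS) and 23.5% (NICD). Of their corrected reads it held 14.5%, 14.6% and 23.7%, so its credited reads went largely with its unique reads. The unique reads are therefore not a separate check of these calls.

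The gene her4.1 had 326, 411 and 369 corrected reads in control, HRAS and NICD, or 12.4, 10.0 and 16.7 scaled CPM. The HRAS library was the lowest and the NICD library the highest, and neither difference from the control was called. Its fold was 0.804 [0.694 to 0.933] in HRAS and 1.35 [1.16 to 1.57] in NICD against the control. The ratio of HRAS to NICD was 0.598 [0.518 to 0.690]. Its unique reads, 96 (control), 100 (HRAS) and 134 (NICD), gave 0.670 [0.501 to 0.896] and 1.65 [1.26 to 2.17] against the control. On these reads her4.1 was called lower in HRAS than in NICD, at 0.406 [0.310 to 0.530]. Unique reads were 29.4% (control), 24.3% (HRAS) and 36.3% (NICD) of its corrected reads, so this ratio also holds that difference. Why it arose was not tested.

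The remaining her4 copies, which are no members by name, share these reads. Against the control, her4.2 stood at 1.33 in NICD [1.16 to 1.52] and at 1.17 in HRAS [1.04 to 1.32]. The copy her4.4 stood at 1.05 in NICD [0.860 to 1.27] and at 0.709 in HRAS [0.590 to 0.853]. On unique reads her4.2 stood at 1.69 in NICD [1.11 to 2.62] and at 1.05 in HRAS [0.698 to 1.61]. Unique reads of her4.4 gave 1.34 in NICD [0.840 to 2.17] and 0.625 in HRAS [0.381 to 1.02]. On them her4.4 was called lower in HRAS than in NICD, at 0.465 [0.287 to 0.747]. The copy her4.3, which has 2 transcripts, had no unique read in any library, beside 1482 to 2274 non-unique reads. It was credited with only 21 (control), 12 (HRAS) and 8 (NICD) corrected reads.

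A sum over the 5 her4 genes removes the question of how a read was divided among them. It held 1159 (control), 1687 (HRAS) and 1367 (NICD) corrected reads, a fold of 1.40 [1.30 to 1.52] in NICD and of 0.929 [0.862 to 1.002] in HRAS against the control. Unique reads of the same genes, 199, 235 and 302, gave 1.79 [1.496 to 2.16] and 0.759 [0.626 to 0.922]. In HRAS against NICD, which have the same driver, the sum stood at 0.662 [0.616 to 0.712] on corrected reads. On unique reads it stood at 0.423 [0.355 to 0.503], past the 2-fold limit. Unique reads were a larger part of the sum in NICD than in HRAS or the control, so this ratio holds more than a difference in level. For her4.5 that part was 16.7% (control), 14.6% (HRAS) and 21.9% (NICD). Over all genes it was 50.9%, 50.3% and 51%. The reason was not tested. The share of her4 reads credited to her4.5 was 14.5% (control), 14.6% (HRAS) and 23.7% (NICD). Without her4.5, a sum chosen after its values were seen, the others stood at 1.25 in NICD against the control on corrected reads [1.15 to 1.37] and at 1.60 on unique reads [1.31 to 1.96].

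**Figure D2:**
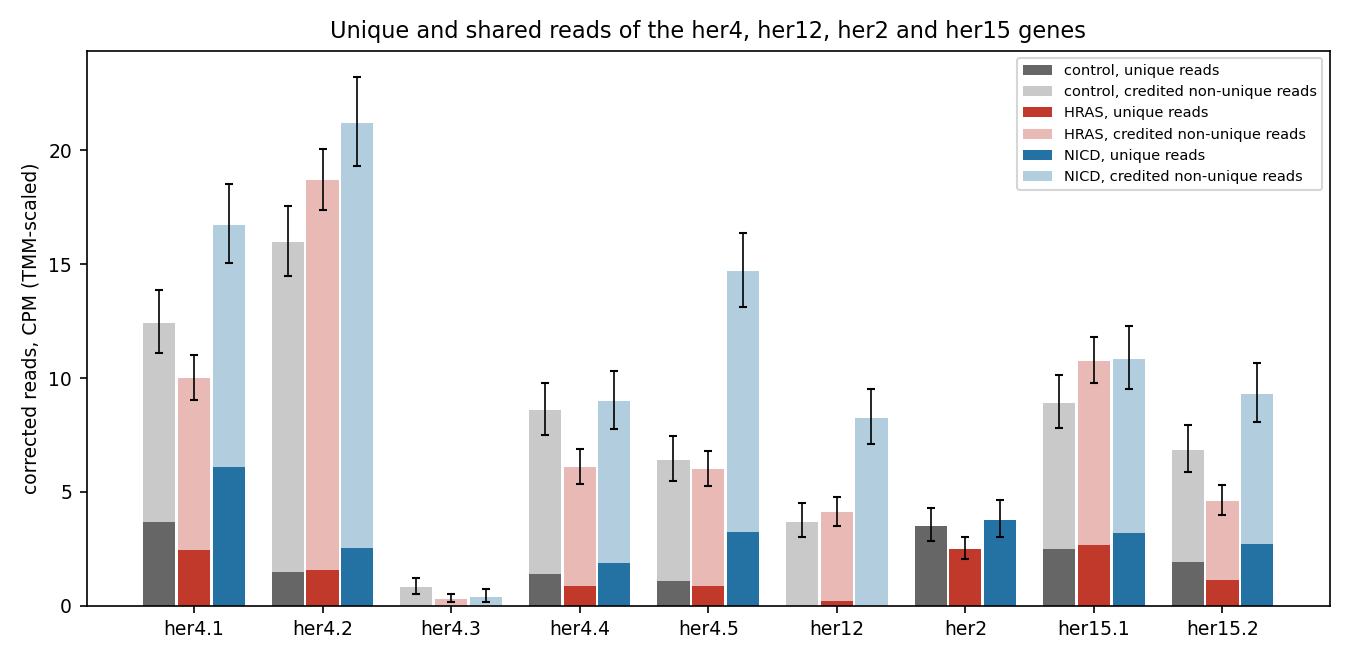
Scaled CPM of 9 her genes in the control, HRAS and NICD libraries; the dark part of a bar is unique reads, the pale part is non-unique reads credited to the gene, and whiskers are 95% counting intervals of the whole bar. The NICD bars of her4.5 (14.7) and her12 (8.25) stand above those of the other libraries, and only her2 consists wholly of unique reads.

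The gene her12, another Hes5-like gene beside the her4 genes, had 97 (control), 169 (HRAS) and 182 (NICD) corrected reads. Scaled, these were 3.70, 4.11 and 8.25 scaled CPM, so that control and HRAS had overlapping intervals and NICD stood above both. It was 2.23-fold higher in NICD than in the control [1.73 to 2.88] and stood at 1.11 in HRAS [0.861 to 1.44]. In HRAS against NICD it stood at 0.499 [0.402 to 0.618], just past the 2-fold limit, and with upper quartile scaling this call was lost.

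Almost no read of her12 was unique: 0 (control), 8 (HRAS) and 0 (NICD). The gene has 2 transcripts, and it was credited with 49.2% to 49.7% of its non-unique reads, which is what counting a read once for each of those transcripts would give. The her12 folds therefore have no check on unique reads.

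The gene her2, a Hes5-like gene that neighbours her15.1 and her15.2, had only unique reads, 92 (control), 103 (HRAS) and 83 (NICD). Its scaled level was 3.51 (control), 2.51 (HRAS) and 3.76 (NICD) scaled CPM. The HRAS library was the lowest, at 0.714 of the control [0.534 to 0.957], and NICD stood at 1.07 [0.788 to 1.46]. Neither was called. Its neighbours, no members by name, showed how shared reads were divided. The her15 copies had the same number of non-unique reads in each library (299, 474 and 317), and her15.1 was credited with 56.5%, 70.0% and 53.8% of the reads divided between them, beside 56.5%, 70.1% and 53.8% of their unique reads. The split between these 2 copies thus followed their unique reads, which numbered from 47 to 110. Among the her4 genes the shares did not match throughout: in the control her4.1 held 48.2% of the unique and 28.1% of the corrected her4 reads, and her4.2 held 19.6% and 36.2%. Here her4.2 has 2 transcripts and her4.1 has 1, and a read on both transcripts of a gene is not unique. The shares of her4.1 and her4.2 therefore do not show how reads were split between the copies. For her4.4 and her4.5, with 1 transcript each, the unique and corrected shares lay close together. They were 18.1% and 19.4% (control), 14.9% and 14.8% (HRAS) and 13.6% and 14.5% (NICD) for her4.4. For her4.5 they were 14.1% and 14.5%, 15.3% and 14.6%, and 23.5% and 23.7% in the same order.

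HEY1, a Hey repressor of vessels, heart and other tissues, rested almost wholly on unique reads. It had 1027 (control), 1206 (HRAS) and 1024 (NICD) corrected reads, or 39.1, 29.3 and 46.4 scaled CPM. The intervals of the 3 libraries did not overlap, with HRAS the lowest and NICD the highest. The fold was 0.749 [0.689 to 0.815] in HRAS against the control, 1.19 [1.09 to 1.29] in NICD against the control and 0.632 [0.581 to 0.688] in HRAS against NICD. None reached 2-fold.

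HEY2 had 119, 253 and 142 reads in control, HRAS and NICD, all of them unique. Scaled, they were 4.54, 6.15 and 6.44 scaled CPM, and the transgenic libraries overlapped with each other. HEY2 stood at 1.35 in HRAS [1.09 to 1.70] and at 1.42 in NICD [1.10 to 1.83] against the control, and at 0.955 in HRAS against NICD [0.776 to 1.18]. In HRAS against the control HEY1 and HEY2 thus stood on opposite sides of 1, with intervals that did not overlap. The relative heyl, no member by name, had 66, 60 and 48 reads and stood at 0.581 in HRAS [0.402 to 0.836] and at 0.867 in NICD [0.584 to 1.27].

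Of the NRARP identifiers, ENSDARG00000091419 had 1523 (control), 2519 (HRAS) and 1905 (NICD) corrected reads, nearly all unique. Its scaled levels were 58.0, 61.3 and 86.3 scaled CPM, and the NICD library stood above the others. The fold was 1.49 in NICD against the control [1.39 to 1.59] and 1.06 in HRAS against the control [0.990 to 1.13]. The identifier ENSDARG00000018958 had 451, 794 and 430 corrected reads, or 17.2, 19.3 and 19.5 scaled CPM. Its libraries overlapped, with a fold of 1.12 in HRAS [0.9997 to 1.26] and 1.13 in NICD [0.991 to 1.30] against the control. On unique reads these folds were 1.14 [1.005 to 1.30] and 1.17 [1.01 to 1.35], with intervals just above 1. On ratios of HRAS to NICD, ENSDARG00000091419 stood at 0.710 [0.668 to 0.754] and ENSDARG00000018958 at 0.991 [0.880 to 1.12], so the NRARP identifiers did not have the same pattern.

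The gene her8a, a hairy-related gene of the nervous system, had 252 (control), 225 (HRAS) and 196 (NICD) corrected reads. Scaled, these were 9.60, 5.47 and 8.88 scaled CPM, with HRAS alone low. The fold was 0.570 in HRAS against the control [0.474 to 0.685], 0.925 in NICD [0.763 to 1.12] and 0.616 in HRAS against NICD [0.507 to 0.750]. It was not called in any of them. Unique reads numbered 31 (control), 38 (HRAS) and 18 (NICD). They gave 0.786 in HRAS against the control [0.478 to 1.31] and 1.13 in HRAS against NICD [0.639 to 2.14]. The first of these intervals holds the corrected fold of 0.570, so these fewer reads do not decide whether HRAS was below the control. The second narrowly leaves out the corrected 0.616. The gene has 2 transcripts, and reads that fall on both are not unique. It was credited with 40.7% to 45.6% of its non-unique reads.

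HES2 (ENSDARG00000068168), named after a mammalian Hes repressor, had 62 (control), 41 (HRAS) and 23 (NICD) corrected reads. Scaled, they were 2.36, 0.997 and 1.04 scaled CPM, so the transgenic libraries were alike and the control was high. It was lower in HRAS, at 0.424 [0.277 to 0.636], and lower in NICD, at 0.447 [0.261 to 0.722], and these ratios share the control library. None of its reads were unique. It had 124, 82 and 46 non-unique reads, each library's number being 2 times the corrected reads, as for a gene whose reads fall on both of its 2 transcripts. The other HES2 identifier, ENSDARG00000074897, had 15, 10 and 20 corrected reads and did not reach the minimum in any comparison.

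The segmentation clock gene her1 had 9 (control), 4 (HRAS) and 1 (NICD) reads, below the minimum. The ratio of NICD to control was 0.188 [0.00301 to 0.953] and that of HRAS to control 0.302 [0.0638 to 1.02]. Its neighbour and clock partner her7, no member by name, had 8 corrected reads in the control and 0 in both transgenic libraries, beside 0.305 scaled CPM in the control. A floor of 3 reads equals 0.073 scaled CPM in HRAS and 0.136 in NICD.

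**Figure D3:**
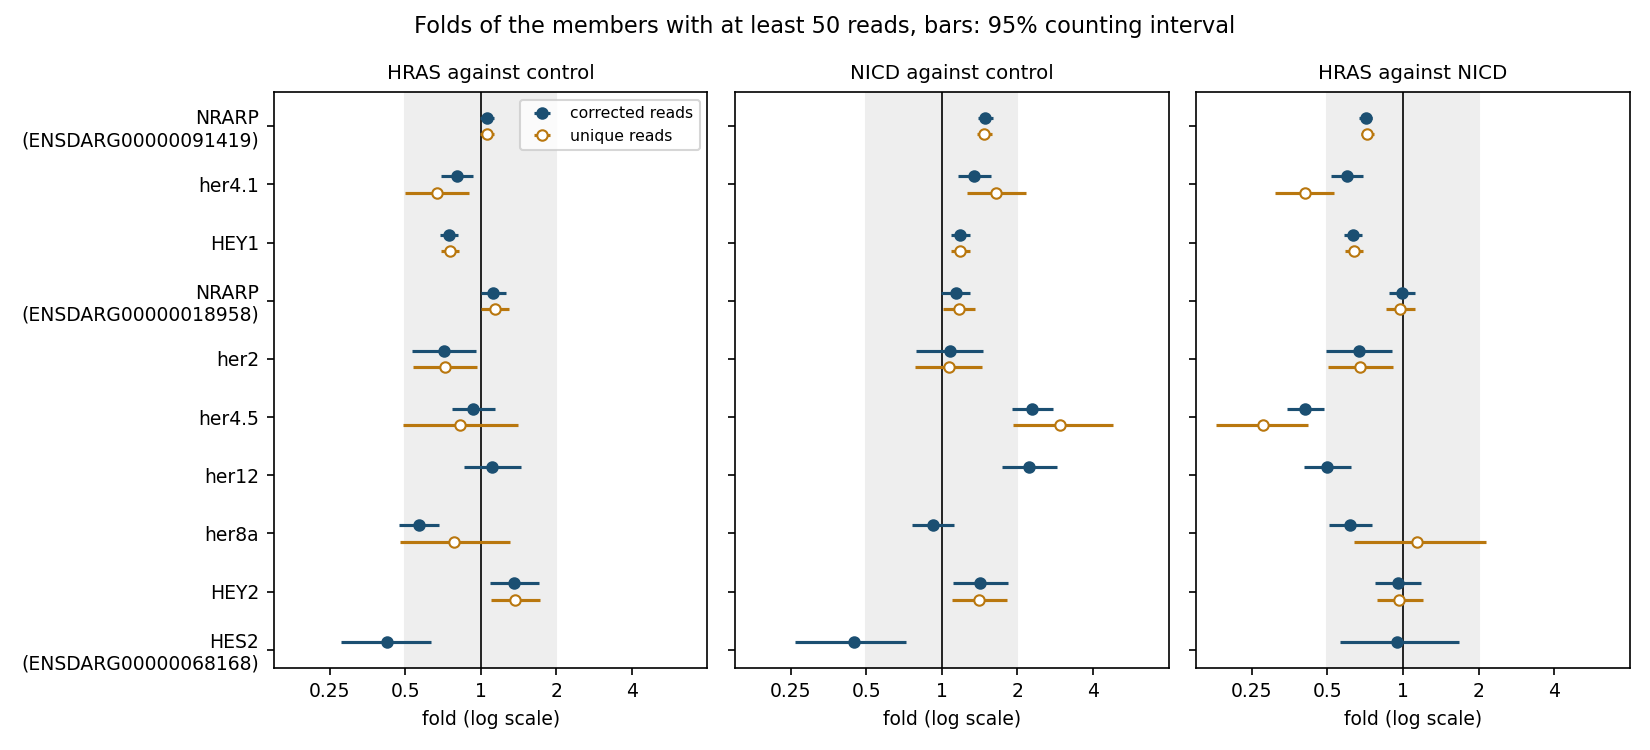
Folds of the 10 identifiers that reached 50 reads in each comparison, on a log axis, from corrected reads (filled) and, where unique reads reached the same minimum, from unique reads (open); bars are 95% counting intervals and the grey band is the range within 2-fold. In NICD against control, her4.5 (2.29) and her12 (2.23) lie to the right of the band and HES2 (0.447) to the left. In HRAS against NICD no corrected-read point lies right of 1.

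In HRAS against control 1 of the 10 identifiers with enough reads was called, lower, where 10.2% of the 20873 genes with enough reads were called, 6.09% higher and 4.14% lower. In NICD against control 3 of 10 were called, 2 higher and 1 lower, where 6.68% of 20061 genes were called, 3.56% higher and 3.12% lower. In HRAS against NICD 2 of 10 were called, both lower, where 11.3% of 20856 genes were called, 5.15% higher and 6.19% lower. With so few identifiers the shares rest on single genes. On unique reads 0 of 8, 1 of 7 and 2 of 8 identifiers were called in the same order of comparisons, beside 9.71%, 6.07% and 10.5% of all genes.

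At any fold, an interval that left out 1 was common among all genes. In HRAS against control 5 of 10 identifiers lay below 1 and 1 above, against 30.8% and 31.5% of all genes. In NICD against control 6 of 10 lay above and 1 below, against 30.8% and 25.8%. In HRAS against NICD 7 of 10 lay below and 0 above, against 31.0% and 32.2%. On unique reads 3 of 8 lay below and 2 above in HRAS against control. Of 7 in NICD against control, 6 lay above and 0 below, and of 8 in HRAS against NICD, 5 lay below and 0 above. The shares of all genes at any fold were not counted on unique reads. The median log2 fold of the 10 was -0.21 in HRAS against control, 0.34 in NICD against control and -0.62 in HRAS against NICD, beside 0.00, 0.03 and 0.01 over all genes tested. On unique reads, with 8, 7 and 8 identifiers, the medians were -0.31, 0.50 and -0.52. The comparisons with the control share that library, and the her4 copies share reads, so the members are not independent of each other.

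The other hairy-related genes, from a list of 20 symbols of which 15 had a match, held 15 further identifiers. Of 11 with enough reads, 0 were called in HRAS against control, 1 was lower in NICD against control and 1 was lower in HRAS against NICD. HELT, a helix-loop-helix repressor of the midbrain, was lower in NICD than in the control, at 0.408 [0.239 to 0.654] on 23 and 68 reads, all unique. The copy her15.2 was lower in HRAS than in NICD, at 0.495 [0.404 to 0.606], while its near-identical copy her15.1 stood at 0.992 [0.846 to 1.17]. The sum of both, which does not depend on the split, stood at 0.763 [0.675 to 0.863] and would not be called. On unique reads, 47 in HRAS and 60 in NICD, her15.2 was also called lower, at 0.427 [0.284 to 0.635]. On these reads her15.1 stood at 0.852 [0.628 to 1.17] and the sum at 0.656 [0.517 to 0.835]. The split of shared reads between the copies followed their unique reads, so the her15.2 call on unique reads is not a separate check. The median log2 fold of the list was -0.38 in HRAS against control, 0.01 in NICD against control and -0.18 in HRAS against NICD, and on unique reads it was -0.37, 0.22 and -0.31.

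The genes that carry the Notch signal are given from a list of 60 symbols, which matched 46 identifiers besides the members, 45 of them with enough reads. In NICD against control 0 of 45 were called, and in HRAS against control 1 was, mfng. This Fringe glycosyltransferase, which modifies Notch receptors, had 91 (control), 480 (HRAS) and 58 (NICD) reads, and it was 3.35-fold higher in HRAS than in the control [2.69 to 4.26] and 4.41-fold higher than in NICD [3.38 to 5.94]. The ligand gene jag1a was lower in HRAS than in NICD, at 0.483 [0.400 to 0.583], with almost no unique reads. DNER, a neuronal transmembrane protein described as a Notch ligand, was lower in HRAS than in NICD at 0.374 [0.323 to 0.432], with all reads unique. The medians of the list were 0.00, 0.10 and 0.02, or 0.02, 0.07 and 0.10 on unique reads, in HRAS against control, NICD against control and HRAS against NICD.

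Whole larvae hold several tissues that express the members, and lists of marker genes moved as follows. Neural progenitor genes (19 identifiers, none without reads) summed to 1190 (control), 1089 (HRAS) and 1170 (NICD) scaled CPM, with a median log2 fold of -0.33 in HRAS and 0.06 in NICD against the control. In this list 1 of 19 was lower in HRAS, a VIM identifier with few reads (ENSDARG00000044501, 53 in the control and 35 in HRAS), at 0.423 [0.267 to 0.658], and 0 were called in NICD. The more abundant VIM identifier (ENSDARG00000010008) had 1288 (control), 3254 (HRAS) and 2123 (NICD) reads and lay the other way, at 1.61 in HRAS [1.51 to 1.72] and 1.96 in NICD, and was not called. On unique reads the medians of the list, here and below over the identifiers with enough unique reads, were -0.17 and 0.22. The proneural list takes in genes that drive progenitors towards neurons, and also elavl3, ELAVL4 and the Notch ligand dlb. Its 16 identifiers, none without reads, summed to 679, 511 and 727. Its medians were -0.37 and -0.19, or -0.34 and -0.15 on unique reads, and 0 of 16 were called against the control. In HRAS against NICD, ELAVL4, a neuronal RNA-binding protein, was lower at 0.499 [0.478 to 0.522]. The medians of both neural lists and of the members were thus below 0 in the HRAS library, and the part of neural tissue in the members' values was not tested.

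Pan-endothelial genes (14 identifiers, none without reads) summed to 259 (control), 884 (HRAS) and 246 (NICD) scaled CPM. Of the 14, 12 were higher and 1 was lower in HRAS than in the control, and 0 were called in NICD. Arterial genes (16 identifiers, none without reads) summed to 300, 454 and 361, with medians of 0.12 in HRAS and 0.35 in NICD, or -0.02 and 0.22 on unique reads, and 3 were higher and 1 lower in HRAS. Among them were sox18, 3.33-fold higher [2.84 to 3.93], and CLDN5 (ENSDARG00000014059), a tight junction gene, 7.03-fold higher [6.41 to 7.73], although only 7 of its HRAS reads and 1 of its control reads were unique. The other CLDN5 identifier (ENSDARG00000043716) stood at 1.01 [0.884 to 1.15]. Both CLDN5 identifiers also stand in the pan-endothelial list, so the sums and counts of these lists are not separate. SOX7 was 2.04-fold higher [1.77 to 2.37], and CXCR4 (ENSDARG00000041959) was lower at 0.474 [0.387 to 0.579], whereas the other CXCR4 identifier (ENSDARG00000057633) stood at 1.88 [1.53 to 2.33] and was not called. Set against NICD, the HRAS library was higher in the first CLDN5 identifier (5.497-fold, 5.03 to 6.03) and sox18 (2.35-fold, 2.03 to 2.74) and lower in VEGFC (0.435, 0.320 to 0.589) and in GJA5 (ENSDARG00000040065; 0.498, 0.359 to 0.688), while the other GJA5 identifier (ENSDARG00000069450) stood at 0.899 [0.774 to 1.05]. HEY2, the member with a known arterial role, stood at 1.35 in HRAS and at 1.42 in NICD against the control. Neither relative stood above the control in both libraries. HEY1 was below it in HRAS, at 0.749, and above it in NICD, at 1.19 [1.09 to 1.29]. The gene heyl stood at 0.581 in HRAS and at 0.867 in NICD. The part of endothelial tissue in these values was not tested. Segmentation clock genes held 20 identifiers, 1 of them without reads, and summed to 376, 368 and 337. That list also holds DLD, LFNG, dlc and HES6, which stand in the Notch pathway or hairy-related lists as well. DLD had 6125 (control), 8765 (HRAS) and 4386 (NICD) reads, and LFNG had 1804, 3221 and 1346. These genes weigh heavily in the sum, which says little about clock genes with few reads, such as her7. The presomitic gene tbx6 was 4.23-fold higher in NICD than in the control [2.26 to 9.07], on 44 and 12 reads, and lower in HRAS than in NICD at 0.175 [0.0864 to 0.318]. WNT3A, a Wnt ligand of the tail bud, was higher in NICD at 2.03-fold [1.22 to 3.49] and in HRAS at 2.52-fold [1.63 to 4.13]. The symbol wnt3a matched more than 1 identifier, and only 1 was called in each of these comparisons.

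**Figure D4:**
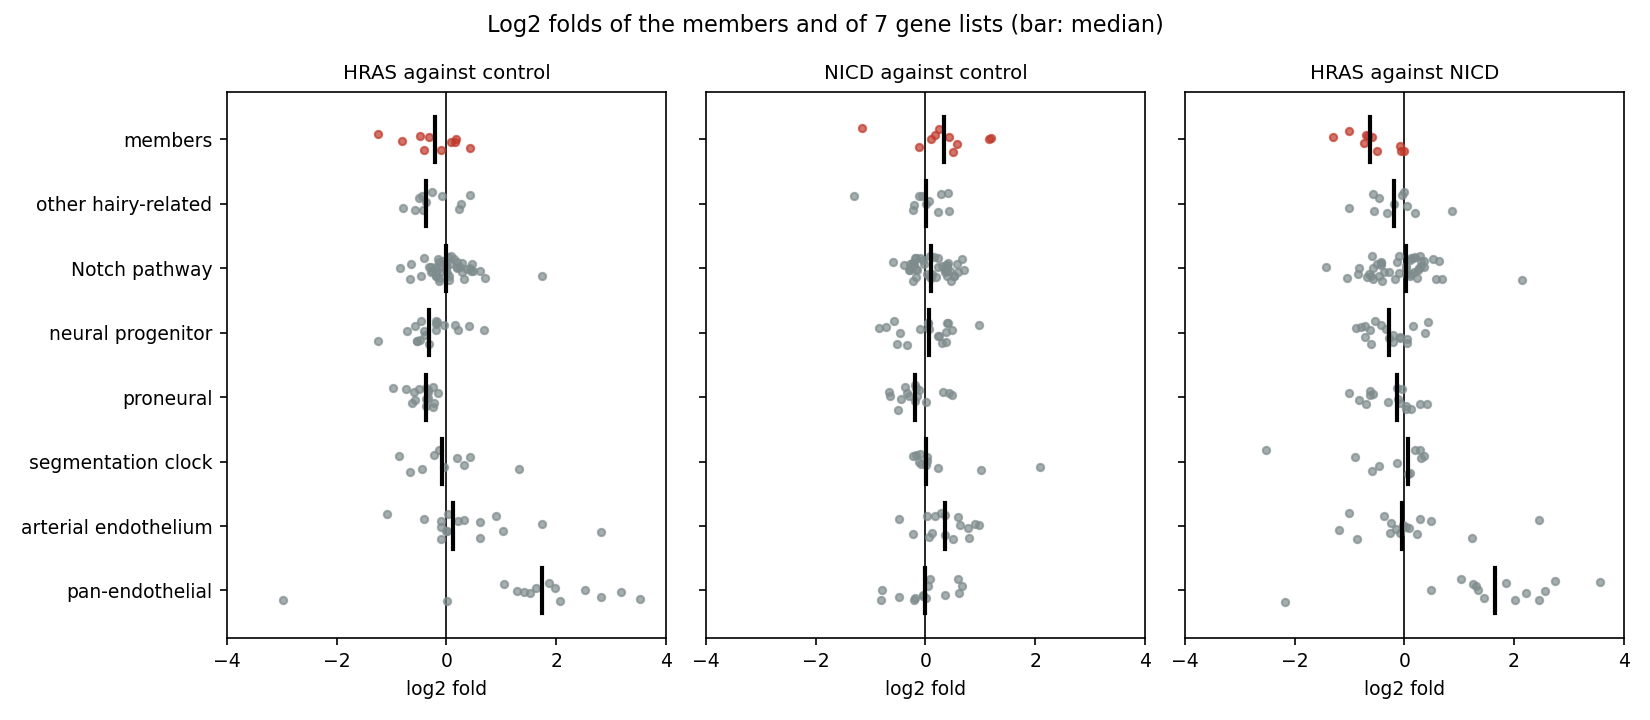
Log2 folds of the members with at least 50 reads (red) and of the genes of 7 lists (grey) in the 3 comparisons; each point is an identifier and the black bar is the median. The members' median is -0.21, 0.34 and -0.62 from left to right, and the pan-endothelial list stands to the right in both comparisons with HRAS as the first library.

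The named genes most like a called member were found by the Euclidean distance between pairs of log2 folds, HRAS against control and NICD against control, over 3 libraries and among the other named genes with at least 200 reads in all. These numbered 14391 for her4.5 and her12 and 14392 for HES2 (ENSDARG00000068168), which itself is under that minimum. Nearest to her4.5 were si:dkey-183c6.8 (distance 0.083), hipk1a (0.10) and lhfpl4b (0.10). Nearest to her12 were si:ch211-132g1.3 (0.0041), si:ch211-258f14.2 (0.047) and FLNC, a muscle filamin (0.10). Nearest to HES2 (ENSDARG00000068168) were arhgap23b (0.034), rs1a, the gene of the retinal protein retinoschisin (0.071), and kcnb2a (0.087). Within 0.25 of her4.5, her12 and HES2 lay 27, 43 and 33 genes. With 3 libraries such likeness is a description of these values.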

How the data were processed

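Per the series' design text, an Illumina HiSeq 2000 was used and CLC bio Assembly Cell 3.2 assigned the reads to Ensembl release 63 transcripts of Zv9. The submitters' processing notes name CASAVA 1.8. Neither mapping parameters nor the use of strand are stated. Per the file headers, the authors deposited, for each identifier, a count of unique reads, a count of non-unique reads, corrected total reads (an expected count, in whole numbers) and RPKM. These RPKM values agreed within 1.17% with a recomputation from corrected reads and longest transcript for genes with at least 50 reads. Names came from a table that matched 70.4% of identifiers.

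TMM factors from edgeR 4.0.16 in R 4.3.3 were 0.994, 1.000 and 1.006 for control, HRAS and NICD and scaled the totals of corrected reads. The size rule, the 0.5 reads added and the intervals are given with the first results. Reads carry no molecular identifiers, so intervals may understate even counting error, and they leave out variation between larvae. Error in the division of shared reads is not in the intervals of corrected reads either. A count of 3 reads equals 0.114, 0.073 and 0.136 scaled CPM. The size rule was tested on simulated data with planted changes. The simulation had no variation between larvae and no division of shared reads, so it covers neither. Alternatives were scaling by total, by DESeq2 1.42.0 size factors and by the upper quartile, RPKM, unique reads, other minimums and fold limits, and 5 reads added.

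The members, lists and alternatives were chosen with earlier results of these data known. Named are all members, every called gene of the hairy-related and Notch pathway lists, up to 4 called genes with the largest change of the progenitor, proneural, clock and arterial lists, and the 3 genes most like each called member. Planned promoter and protein descriptions were not made, since no sequence was used here. Coordinates are not given.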

Additional observations from a re-analysis of the deposited data

Results flagged for a closer look

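In her4.1 and HEY1 the HRAS and NICD libraries stood on opposite sides of the control with intervals that left out 1. The log2 fold of her4.1 was -0.31 in HRAS and 0.43 in NICD, and that of HEY1 was -0.42 in HRAS and 0.25 in NICD. Neither gene reached 2-fold against the control. The difference was not tested, since each group holds 1 library. The direct ratio of HRAS to NICD, with its counting interval, was 0.598 [0.518 to 0.690] for her4.1 and 0.632 [0.581 to 0.688] for HEY1.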

How the results depend on the processing

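No paired analysis was possible because each group holds 1 library, and for the same reason no library could be left out. The 42 log2 folds were those of the members and of 2 sums. The sums were the her4 genes alone, and the her4 genes with her12, her2 and the her15 genes. All 42 stayed within their counting intervals under total counts, DESeq2 size factors and upper quartile scaling. So did 36 of 36 under RPKM and 36 of 36 with 5 reads added. The scalings shift every log2 fold of a comparison equally, by -0.03 to 0.02, and RPKM rests on the same corrected reads. For the scalings and RPKM, staying within the intervals was thus nearly fixed in advance. On unique reads 22 of 38 stayed, 15 moved and 1 reversed: her12 in HRAS against NICD went to 3.21, on 8 and 0 unique reads, a value that depends on the reads added. The cause was not tested. The members called, 1 in HRAS against control, 3 in NICD against control and 2 in HRAS against NICD, became 0 and 1 in the first and second of these on unique reads. There HES2 (ENSDARG00000068168) and her12 had too few unique reads to be called, so their calls were not checked. In HRAS against NICD the number stayed at 2, with her4.1 in place of her12. With a minimum of 200 reads the members called became 0 in HRAS against control and 2 in NICD against control, where HES2 was lost. With a minimum of 10 or none they became 4 in NICD against control, with her1 lower, and 3 in HRAS against NICD, with HES2 (ENSDARG00000074897) lower. They became 1 in HRAS against NICD with upper quartile factors, 2 in HRAS against control and 6 in HRAS against NICD at 1.5-fold, and 0 in each comparison at 4-fold, which a stricter limit makes by construction. Notch pathway genes called, 1, 0 and 3 in the same order, became 6, 4 and 11 at 1.5-fold, and 0 in HRAS against control and 1 in HRAS against NICD at 4-fold. All genes called, 2137, 1341 and 2366, became 4983, 3710 and 5267 at 1.5-fold and 425, 248 and 389 at 4-fold. They became 3483, 2596 and 3750 with no minimum and 1121, 547 and 1221 with a minimum of 200 reads. With a minimum of 10 reads they became 3207 in HRAS against control and 2353 in NICD against control. Depth limits her1 and HES2 (ENSDARG00000074897), which had 1 to 20 reads in a library.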

Other observations

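HES6, a hairy-related gene of neural progenitors and of the segmentation clock, stood for 2 identifiers that lay on opposite sides of the control in HRAS. HES6 (ENSDARG00000007097) had 138 reads in the control and 292 in HRAS, a fold of 1.35 [1.10 to 1.67], and 136 in NICD. HES6 (ENSDARG00000019335) had 491 and 563, a fold of 0.732 [0.647 to 0.828], and 415 in NICD. Neither reached 2-fold. Unique reads made up a larger part of the her4 sum in NICD (302 of 1367) than in HRAS (235 of 1687) or in the control (199 of 1159), and the reason was not tested.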
